A study of Mus musculus with 32 samples.

Results

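Cilp, Cilp2, Thbs1, Thbs2, Thbs3, Thbs4 and Comp encode the cartilage intermediate layer proteins and the thrombospondin family, and their RNA was followed in mouse hearts after social stress. The 7 genes were taken by name from the array's gene column, and they are 7 of the 36409 gene names on the array. The set was selected on the measured stress effects of Cilp and Thbs4, which had already been seen to be higher in stressed hearts of several conditions in these data. The 7 genes are read by 8 probes, and all 8 were well above background on 32 of 32 arrays, so all 7 were among the 27532 genes tested.

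Each array held total RNA from the heart of a single C57BL/6 mouse. Stressed mice spent 6 hours a day in a mesh box within the cage of an aggressor mouse, which was let at them for short bouts of attack, over 5 or 10 days (T5 or T10), followed by a rest of 1, 10 or 42 days (R1, R10 or R42). Control mice sat in the same kind of box in a cage with no aggressor. The 4 conditions were T5R1, T5R10, T10R1 and T10R42, each with its own 4 stressed and 4 control mice, which makes 32 hearts in 8 groups. The labels name no altered allele and no drug. RNA came from heart tissue, not sorted cells, so in these bulk samples fewer cells of a type and less RNA per cell cannot be told apart.

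The cartilage intermediate layer proteins are secreted into the extracellular matrix. CILP is abundant in cartilage, is made by cardiac fibroblasts after injury, and is known to bind transforming growth factor beta and to dampen its signalling, and that of insulin-like growth factor 1. Thrombospondins are calcium-binding glycoproteins that assemble into trimers (THBS1 and THBS2) or pentamers (THBS3, THBS4 and COMP). They bind collagens, integrins and growth factors, and they appear in the heart mainly during remodelling and repair.

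The probes are shown because each value below is the brightness of these short sequences, and because they say which stretch of each transcript was read. Coordinates are given on mouse build mm9, as the array files state them. The Cilp probe lies at chr9:65128007-65128066, the Thbs4 probe at chr13:93521565-93521624 and the Thbs1 probe at chr2:117952585-117952644, and for these the first 30 of 60 bases are printed. The Cilp2 probe lies at chr8:72404948-72405007. The Comp probe, at chr8:72905692-72905825, and the Thbs2 probe, at chr17:14804526-14805789, span 134 and 1264 genomic bases with 60 bases of sequence, so each crosses an intron and reads spliced RNA. The exon and untranslated region that each probe falls in were not determined here.
Cilp: tttctgtccatctcatgtgacagctgtcgt
Thbs4: tatcatggcttttcttttaccagcccaaat
Thbs1: gcctgtagagttagtatttctggtttttat
Cilp2: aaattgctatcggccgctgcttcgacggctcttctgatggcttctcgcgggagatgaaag
Thbs2: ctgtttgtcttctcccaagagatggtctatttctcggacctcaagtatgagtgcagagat
Comp: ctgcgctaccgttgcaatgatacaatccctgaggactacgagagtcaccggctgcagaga
Thbs3: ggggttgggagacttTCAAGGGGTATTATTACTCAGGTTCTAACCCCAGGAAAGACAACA
Thbs3 was read by this probe at chr3:89030667-89030726 and by another at chr3:89030682-89030741. The capitals mark the 45 bases that both carry, so their readings are not independent.

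Levels are log2 of the processed signal minus the 75th percentile of the same array, so 0 is the brightness of a spot at that percentile. A level may be compared between hearts for a gene, but not between genes, since probes differ in brightness. Stress effects are stressed minus control on this log2 scale, with the standard error (SE) of a limma fit over all 32 arrays and n = 4 hearts per arm. The stress effects of the 7 genes are among the values that led to their choice, so they are described with no p. The genes of the lists further on were tested, and a gene is called where its p, adjusted by Benjamini-Hochberg over all 27532, was below 0.05.

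Some facts of the series bear on all values. All 8 arrays of any condition were on the same slide, and hence the effects of slide and condition cannot be told apart. On each slide the controls filled 2 of the 4 columns of arrays and the stressed hearts the other two, so column and stress cannot be told apart either. The T10R1 slide was scanned on another day than the other 3. The scanner software marked 3 arrays of T5R10 for evaluation (control replicate 4 and stressed replicates 1 and 2). Of the defining heart muscle markers, 12 of 12 were well above background on every array. Their summed level ran from 7930 to 8360 in T5R1 controls and from 5820 to 8150 in T5R1 stressed hearts, as multiples of the 75th percentile signal. Of these 12 markers, 0 were measured higher in T5R1, 5 in T5R10, 1 in T10R1 and 6 in T10R42. Their median stress effect was -0.24 in T5R1 and -0.13 in T10R1, beside -0.12 and 0 over all genes. Tnni3 alone was called lower in T5R1 (-0.32, SE 0.10, adjusted p = 0.0328, limma), where 8.43% of all genes were.

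In stressed hearts of 3 conditions, Cilp stood above every control heart. The excess was 6.88-fold after T5R1, 2.56-fold after T5R10 and 6.46-fold after T10R1, and 1.09-fold after T10R42. In T5R1, the control hearts had Cilp levels of -0.25, -0.25, -0.33 and -0.21, and the stressed hearts 3.64, 2.23, 1.91 and 2.31. In T5R10, the controls had -0.79, -0.28, -0.35 and -0.65, and the stressed hearts 0.35, 0.36, 1.36 and 1.30. Both sets of 4 lay apart, and replicate 1 of the T5R1 stressed hearts was the highest of all 32.

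In T10R1, the control hearts had Cilp levels of -0.12, -0.27, -0.14 and -0.58, and the stressed hearts 3.06, 2.07, 1.41 and 3.11. In T10R42, the controls had -0.04, -0.57, -0.51 and -0.20, and the stressed hearts 0.09, -0.20, -0.26 and -0.44. The T10R1 arms lay apart, whereas those of T10R42 overlapped, with 1 of 4 stressed hearts above all controls. The stress effects on Cilp were 2.78 (SE 0.32, 95% interval 2.12 to 3.45) in T5R1, 1.36 (0.69 to 2.02) in T5R10, 2.69 (2.03 to 3.35) in T10R1 and 0.13 (-0.53 to 0.79) in T10R42. Ordered by group mean, the T5R1 stressed (2.52 ± 0.77, SD, n = 4) and T10R1 stressed hearts (2.42 ± 0.82) came first and lay within each other's spread. The T5R10 stressed hearts followed at 0.84 ± 0.56, and the T10R42 stressed hearts at -0.20 ± 0.22 lay within the spread of the controls.

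**Figure D1:**
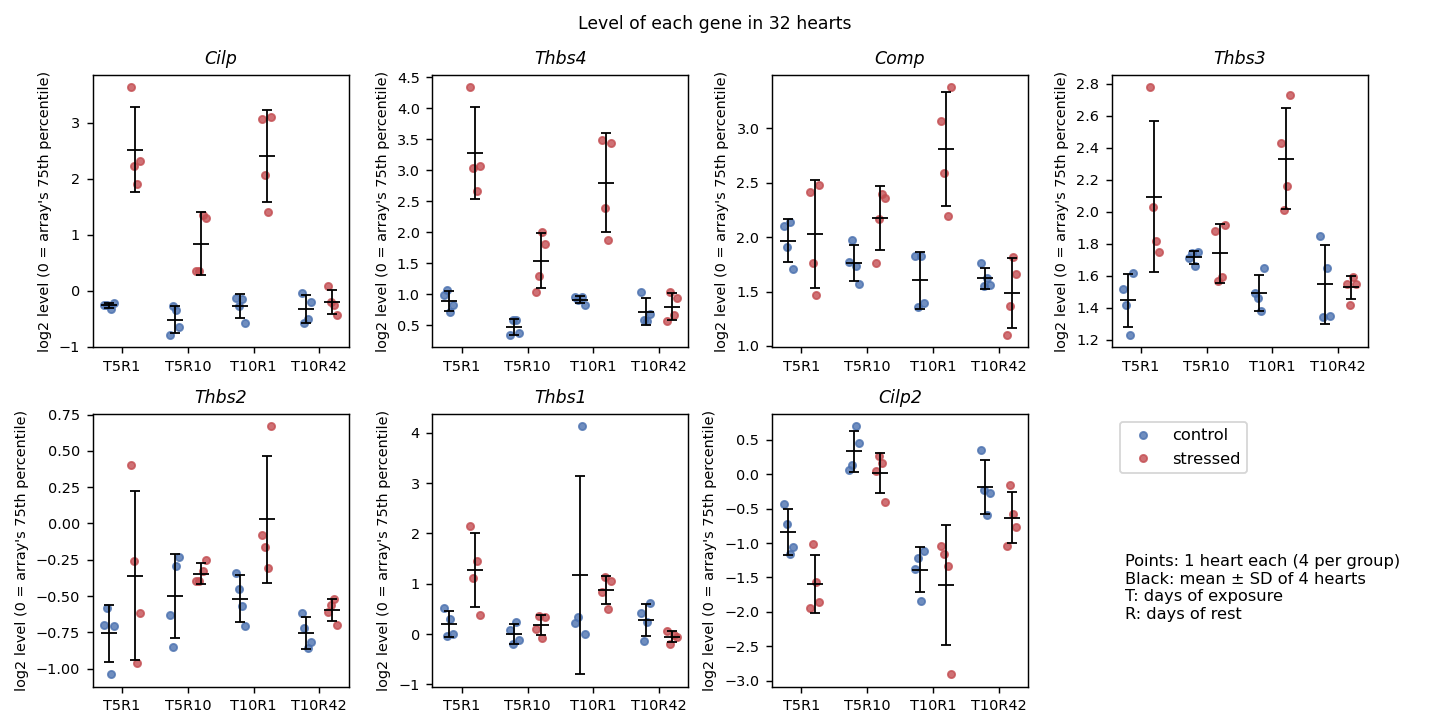
Log2 level of each of the 7 genes in 32 hearts, by condition (x axis) and arm. Each point is a heart, black bars are the mean ± SD of 4 hearts, and 0 is the 75th percentile of the array. Cilp and Thbs4 in stressed hearts lie above all controls in T5R1, T5R10 and T10R1 and overlap with them in T10R42, and a single T10R1 control heart has a Thbs1 level of 4.13.

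Thbs4, the pentameric thrombospondin of tendon and of remodelling heart muscle, had the same separation of arms as Cilp in each of the 4 conditions. In T5R1, the control hearts had levels of 0.99, 1.06, 0.71 and 0.82, and the stressed hearts 4.34, 3.03, 2.66 and 3.07. In T5R10, the controls had 0.34, 0.58, 0.59 and 0.38, and the stressed hearts 1.04, 1.30, 2.00 and 1.81. The arms lay apart in both conditions, by a wider gap in T5R1 (1.60) than in T5R10 (0.44).

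In T10R1, the control hearts had Thbs4 levels of 0.96, 0.91, 0.95 and 0.83, and the stressed hearts 3.48, 2.39, 1.87 and 3.44. In T10R42, the controls had 1.03, 0.59, 0.57 and 0.68, and the stressed hearts 0.57, 1.03, 0.67 and 0.93. The T10R1 arms lay apart, and those of T10R42 covered the same range, from 0.57 to 1.03 in each. The stress effects on Thbs4 were 2.38 (SE 0.30, 5.22-fold) in T5R1, 1.07 (2.09-fold) in T5R10, 1.88 (3.69-fold) in T10R1 and 0.08 (1.06-fold) in T10R42.

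Without the 3 T5R10 arrays that the scanner software marked, the T5R10 stress effects were 1.80 on Cilp and 1.40 on Thbs4. That fit kept only stressed replicates 3 and 4, which had the highest levels of both genes in their group, and control replicates 1, 2 and 3. By size of increase among the 27532 genes tested, Cilp ranked 23 in T5R1, 17 in T5R10, 6 in T10R1 and 6191 in T10R42. The ranks of Thbs4 were 44, 44, 21 and 8129. These ranks describe the contrasts that chose the genes.

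Comp encodes cartilage oligomeric matrix protein, which organises collagen fibrils in cartilage and tendon. In T10R1 its level was 1.83, 1.36, 1.83 and 1.39 in control hearts and 3.07, 2.59, 2.19 and 3.38 in stressed hearts, which lay apart. In T5R1 it was 2.10, 1.91, 2.14 and 1.71 in controls and 2.41, 1.76, 1.47 and 2.48 in stressed hearts, which reached beyond the controls on both sides. The stress effect on Comp was 1.21 (SE 0.22, 2.31-fold) in T10R1, against 0.07 (0.22) in T5R1, 0.41 in T5R10 and -0.14 in T10R42. Among all genes tested, Comp ranked 97 by increase in T10R1.

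Thbs3, another pentameric thrombospondin, stood apart in the conditions with 1 day of rest. In T5R1 its level was 1.52, 1.42, 1.23 and 1.62 in controls and 2.78, 2.03, 1.82 and 1.75 in stressed hearts. In T10R1 it was 1.49, 1.46, 1.38 and 1.65 in controls and 2.43, 2.01, 2.16 and 2.73 in stressed hearts. The arms lay apart by 0.13 and 0.36 and overlapped in T5R10 and T10R42. The stress effects on Thbs3 were 0.65 (SE 0.17, 1.57-fold) in T5R1, 0.02 in T5R10, 0.84 (1.79-fold) in T10R1 and -0.02 in T10R42. The overlapping probe gave 0.60 (SE 0.14), -0.01, 0.94 and 0.02.

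Thbs2, a trimeric thrombospondin that limits blood vessel growth, had stress effects of 0.40 (SE 0.20) in T5R1, 0.16 in T5R10, 0.55 in T10R1 and 0.16 in T10R42. In T10R1 its level was -0.34, -0.45, -0.57 and -0.71 in controls and -0.08, -0.16, -0.31 and 0.67 in stressed hearts. These arms lay apart by only 0.03, and the arms of the other 3 conditions overlapped.

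Thbs1 encodes the trimeric thrombospondin of platelet granules, which can activate latent transforming growth factor beta. In T5R1 its level was 0.51, -0.04, 0.31 and 0.00 in controls and 2.14, 1.12, 1.45 and 0.38 in stressed hearts, 3 of which lay above all controls. In T10R1 it was 0.22, 0.34, 4.13 and 0.01 in controls and 0.83, 1.13, 0.50 and 1.05 in stressed hearts. A single control heart, replicate 3, was thus the highest of all 32, and the 4 stressed hearts lay above the other 3 controls. The stress effects on Thbs1 were 1.07 (SE 0.52) in T5R1, 0.18 in T5R10, -0.29 in T10R1 and -0.34 in T10R42, and that in T10R1 was 0.69 without control replicate 3. The arms overlapped in all 4 conditions.

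Cilp2, the paralogue of Cilp, did not share the increase. In T5R1 its level was -0.43, -0.72, -1.16 and -1.06 in control hearts and -1.94, -1.02, -1.56 and -1.86 in stressed hearts, which overlapped through a single stressed heart. The stress effects on Cilp2 were -0.75 (SE 0.31, 95% interval -1.38 to -0.12) in T5R1, -0.32 in T5R10, -0.23 in T10R1 and -0.44 in T10R42. The value in T10R1 was 0.21 without stressed replicate 4, whose level of -2.91 was the lowest of all 32. Its control level itself ran from -1.38 ± 0.32 (SD, n = 4) in T10R1 to 0.34 ± 0.30 in T5R10. These groups were on different slides, and the part of the slide in this was not tested.

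**Figure D2:**
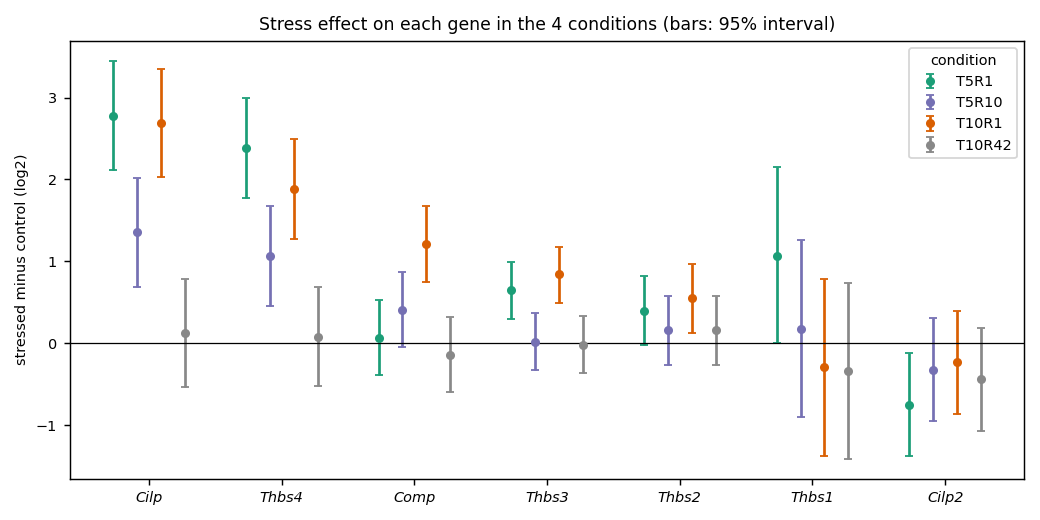
Stress effect (stressed minus control, log2, y axis) on each of the 7 genes in the 4 conditions, with 95% intervals from limma and 4 hearts per arm. For Cilp the values are 2.78, 1.36, 2.69 and 0.13, and for Comp the effect in T10R1 (1.21) stands above that in T5R1 (0.07).

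Read against all genes, 3 of the 7 genes were called higher by limma in T5R1 (Cilp, Thbs4 and Thbs3), where 5.3% of all tested genes were called higher. In T10R1, 4 of the 7 were called higher (Cilp, Comp, Thbs4 and Thbs3), against 0.774% of all genes. In T5R10 and T10R42, 0 of 7 were called higher, against 0.0218% and 0.287%, and 2 and 0 had an unadjusted p below 0.05. Of all 27532 genes tested, 8126 had an unadjusted p below 0.05 in T5R1, 3843 in T5R10, 3613 in T10R1 and 5166 in T10R42. In each of T5R1, T5R10, T10R1 and T10R42, 0 of 7 were called lower, against 8.43%, 0.0545%, 0.36% and 0.61% of all genes. The all-gene split in T5R1, 1458 higher and 2320 lower, depends on the scaling and was 1918 and 1103 with quantile normalisation. The stressed hearts lay above all controls for 3 of the 7 in T5R1, 2 in T5R10, 5 in T10R1 and 0 in T10R42, against 6.63%, 2.61%, 4.3% and 4.15% of all genes. These contrasts entered the choice of the genes, so the counts support nothing.

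Whether the stress effect differed with rest was tested as a difference of stress effects in the same limma fit. The effects that make up each difference were known when the genes were chosen, so these p values are not independent evidence. The T10R1 hearts, and likewise the T5R1 hearts, enter more than 1 of the differences. After 10 days of exposure, the effect with 42 days of rest was smaller than with 1 day for 4 of 7 genes, where 4.12% of all tested genes had a called difference in either direction and 2.23% a lower one. For Cilp the difference was -2.56 (SE 0.46, 95% interval -3.50 to -1.63, adjusted p = 0.00793), from 2.69 to 0.13. For Thbs4 it was -1.80 (SE 0.42, adjusted p = 0.0221), from 1.88 to 0.08. For Comp it was -1.35 (SE 0.32, adjusted p = 0.0231), from 1.21 to -0.14. For Thbs3 it was -0.86 (SE 0.24, adjusted p = 0.0431), from 0.84 to -0.02.

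The calls for Thbs4 and Comp were lost without replicate 1 of the T10R1 stressed hearts (-1.57, adjusted p = 0.0547, and -1.26, adjusted p = 0.0542), and that for Thbs3 was lost in 13 of the 16 fits that each left out a heart. For Thbs2 (-0.39, 95% interval -0.99 to 0.20), Cilp2 (-0.22, -1.11 to 0.67) and Thbs1 (-0.05, -1.57 to 1.48) the difference did not pass, with adjusted p of 0.429, 0.797 and 0.979. For Thbs1 the difference rests on the high control heart and was -1.03 without it. The slides of T10R1 and T10R42 differ as well, and were scanned on different days.

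After 5 days of exposure, 0 of 7 differences between 10 days and 1 day of rest passed by limma, where 2.49% of all genes had a called difference. For Cilp the effect was smaller by 1.42 on the log2 scale in T5R10 (difference -1.42, SE 0.46, 95% interval -2.36 to -0.49, adjusted p = 0.0913). For Thbs4 the difference was -1.32 (SE 0.42, interval -2.18 to -0.46, adjusted p = 0.0892). For Thbs3 it was -0.62 (interval -1.11 to -0.14, adjusted p = 0.159), and the unadjusted p of these 3 genes were 0.00434, 0.00412 and 0.0142. For this comparison 4733 of all 27532 genes had an unadjusted p below 0.05. The other 4 genes had differences between -0.89 (Thbs1) and 0.43 (Cilp2).

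Between 10 and 5 days of exposure, both with 1 day of rest, 0 of 7 differences passed by limma and 1 had an unadjusted p below 0.05, where 0.592% of all genes had a called difference. An unadjusted p below 0.05 was found for 4907 of all 27532 genes. Comp came nearest, with a stress effect larger by 1.14 in T10R1 than in T5R1 (SE 0.32, 95% interval 0.49 to 1.79, unadjusted p = 0.0013, adjusted p = 0.0728). For Comp the difference was 1.29 and passed (adjusted p = 0.0467) without replicate 4 of the T5R1 stressed hearts. For Cilp the difference was -0.09 with an interval from -1.03 to 0.85, so a difference anywhere in that range was not resolved. For Thbs4 it was -0.50 (interval -1.36 to 0.36) and for Thbs1 -1.37 (interval -2.89 to 0.15), which was -0.38 without the high control heart.

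The genes also varied together from heart to heart within a group. This was measured on the deviation of each heart from the mean of its own group, over 32 hearts and 21 pairs of genes, with two-sided permutation p values from shuffling hearts within groups. Cilp and Thbs4 had r = 0.92 (permutation p = 1.40e-04, adjusted over the 21 pairs 0.00294) and Spearman's rho = 0.82 (permutation p = 6.00e-04, adjusted 0.0126). Without the 2 hearts farthest from the median of Cilp, r was 0.87. Within conditions r was 0.98 in T5R1, 0.96 in T5R10, 0.98 in T10R1 and 0.18 in T10R42, and it was 0.76 over the 16 control hearts and 0.94 over the 16 stressed hearts. All deviations share the scaling of their array.

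Comp varied with Thbs4 (r = 0.72, permutation p = 0.00181, adjusted 0.0127; rho = 0.62, permutation p = 0.00563, adjusted 0.0321) and with Cilp (r = 0.66, permutation p = 0.00637, adjusted 0.0223; rho = 0.58, permutation p = 0.0113, adjusted 0.0422). Without the 2 farthest hearts these r were 0.65 and 0.56. Over control hearts they were 0.34 and 0.46, and over stressed hearts 0.78 and 0.70. Within T5R1, T5R10, T10R1 and T10R42, r of Comp with Thbs4 was 0.60, 0.85, 0.89 and 0.32, and with Cilp 0.59, 0.77, 0.93 and -0.37, of the opposite sign in T10R42. Thbs2 varied with Thbs3 (r = 0.71, permutation p = 0.0037, adjusted 0.0155; rho = 0.48, permutation p = 0.012, adjusted 0.0422), Thbs4 (r = 0.69, permutation p = 0.00134, adjusted 0.0127; rho = 0.52, permutation p = 0.0028, adjusted 0.0294) and Cilp (r = 0.66, permutation p = 0.00272, adjusted 0.0143; rho = 0.51, permutation p = 0.00611, adjusted 0.0321). Without the 2 farthest hearts these r were 0.45, 0.48 and 0.50. Over control hearts the same 3 r were 0.18, 0.38 and 0.19, and over stressed hearts 0.86, 0.76 and 0.76. Within T5R10 they were 0.05, 0.12 and 0.10, so they are small within that slide. The pairs of Thbs3 with Cilp (r = 0.62) and with Thbs4 (r = 0.65) missed the threshold after adjustment (permutation p = 0.0239 and 0.0246, adjusted 0.0646 for both; rho = 0.46 and 0.50, permutation p = 0.0417 and 0.0287, adjusted 0.109 and 0.0861), and were 0.46 and 0.40 without the 2 farthest hearts. None of the pairs with Thbs1 or Cilp2 passed after adjustment.

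**Figure D3:**
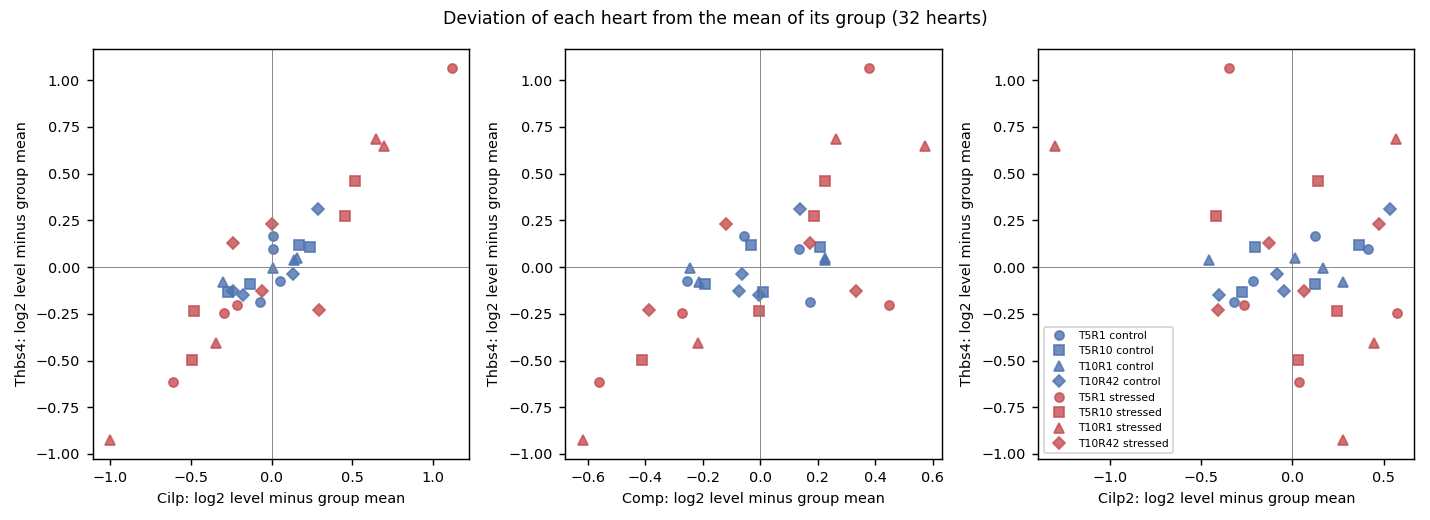
Deviation of each of 32 hearts from the mean of its own group (log2) for Thbs4 (y axis) against Cilp, Comp and Cilp2 (x axes). Colour gives the arm and shape the condition. Thbs4 follows Cilp closely (r = 0.92) and Comp less so (r = 0.72), and shows r = -0.20 with Cilp2.

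The genes whose variation within groups was most like that of Cilp were Postn (r = 0.93), Col1a2 (0.89), Pdgfrl (0.88), Col12a1 (0.88) and Ltbp2 (0.87), over 32 hearts. Postn encodes periostin, a matrix protein of activated fibroblasts, and Col1a2 a chain of type I collagen. The genes most like Thbs4 were Ltbp2 (0.92), Sfrp2 (0.91), Postn (0.89), Pamr1 (0.88) and Fndc1 (0.87). Of the other tested genes with an official symbol and no missing value, 2.95% had r above 0.5 with Cilp and 2.86% with Thbs4. In T5R1 stressed hearts Postn rose by 3.02 (adjusted p = 2.67e-05, limma) and Ltbp2 by 2.16 (adjusted p = 1.18e-04), and in T10R1 by 2.05 and 2.11 (adjusted p = 0.0149 and 0.00164).

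Matrix proteins known to bind thrombospondins or COMP rose together at 1 day of rest. Of 19 tested, 15 rose and 0 fell in T5R1, and 14 rose and 0 fell in T10R1, against 5.3% and 0.774% of all genes called higher. Their median stress effect was 1.04 and 0.96, beside a median of all genes of -0.12 and 0. Col3a1, a chain of type III collagen, rose by 2.95 (SE 0.32) in T5R1 and 2.29 in T10R1. Col1a1 rose by 2.53 and 2.01 (SE 0.30), Col6a1 by 1.31 and 1.11 (SE 0.16), and Fbn1, which encodes fibrillin of elastic microfibrils, by 1.96 (SE 0.23) in T5R1. In T5R10 and T10R42, 0 of 19 passed by limma, and 5 and 2 had an unadjusted p below 0.05. Of all 27532 genes, 3843 and 5166 did, a smaller share than that of the list in T5R10 and a larger one in T10R42. The T10R1 count of 14 was 8 without stressed replicate 1, 8 without stressed replicate 4, and 0 when the 8 arrays of T10R1 were fitted alone.

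Cardiac fibroblast markers also rose, 11 of 19 in T5R1 (with 1 lower) and 10 of 19 in T10R1 (with 0 lower). Of all genes, 5.3% were called higher and 8.43% lower in T5R1, and 0.774% and 0.36% in T10R1. The medians were 0.62 and 0.56, beside -0.12 and 0 over all genes. Meox1, a transcription factor of activated fibroblasts, rose by 1.37 (SE 0.17) in T5R1. Mfap5, a microfibril protein, rose by 1.46 (SE 0.20) in T5R1 and 1.10 in T10R1. Cthrc1, a secreted protein of activated fibroblasts, was at least 10.1-fold higher in T5R1 and at least 8.43-fold in T10R1, because it was well above background on 4 of 4 stressed arrays and 0 of 4 control arrays in each; the bound is set against the dimmest signal above background. The T10R1 count of 10 was 6 without control replicate 4, 6 without stressed replicate 1, 5 without stressed replicate 4, and 0 when T10R1 was fitted alone. In T5R10 and T10R42, 0 of 19 passed by limma, with 5 and 1 at an unadjusted p below 0.05. Among all 27532 genes 3843 and 5166 were, a smaller share than that of the markers in T5R10 and a larger one in T10R42.

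**Figure D4:**
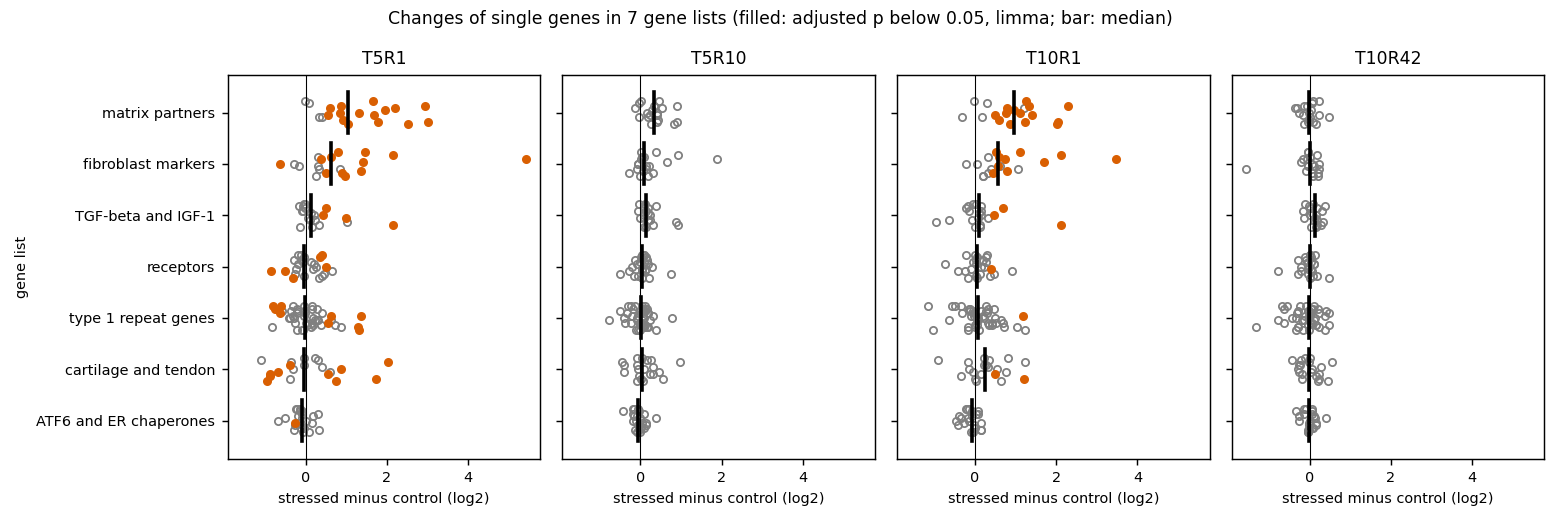
Stress effect (log2, x axis) of the single tested genes of 7 lists in the 4 conditions. Filled points passed the limma test at an adjusted p below 0.05, and bars are medians. The matrix partners have 15 filled points in T5R1 and 14 in T10R1, and no list has any in T5R10 or T10R42.

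Of the transforming growth factor beta and insulin-like growth factor 1 pathway genes on which CILP or THBS1 are known to act, 4 of 20 rose in T5R1 and 3 of 20 in T10R1, and 0 fell. Of all genes, 5.3% were called higher and 8.43% lower in T5R1, and 0.774% and 0.36% in T10R1. In T5R1 the 4 were Ltbp2, Tgfb2 (0.99, SE 0.16), Tgfb3 (0.51, SE 0.16) and Ltbp3 (0.43, SE 0.11). Tgfb2 and Tgfb3 encode ligands, and Ltbp2 and Ltbp3 encode proteins of the latent TGF-beta binding protein family. In T10R1 the 3 were Ltbp2, Tgfb3 (0.69) and Ltbp3 (0.46). The list's medians were 0.12 in T5R1 and 0.09 in T10R1, beside -0.12 and 0 over all genes. The T10R1 count of 3 was 1 without control replicate 1, 2 or 4 or stressed replicate 1 or 4, and 0 when T10R1 was fitted alone.

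Among 24 tested thrombospondin receptors, 3 rose and 3 fell in T5R1, and 1 rose and 0 fell in T10R1. Of all genes, 5.3% were called higher and 8.43% lower in T5R1, and 0.774% and 0.36% in T10R1, so with so few calls the receptors are described singly and nothing is read for the list. Ptprj, a receptor phosphatase, rose by 0.49 (SE 0.13) in T5R1. Cd36, the fatty acid carrier to which the type 1 repeats of THBS1 bind, fell by 0.31, Vldlr, a lipoprotein receptor, fell by 0.51, and Cacna2d2, a calcium channel subunit, fell by 0.86. The levels of Cacna2d2 overlapped between arms. Lrp1, the endocytic receptor that clears thrombospondins, rose by 0.39 (SE 0.10, adjusted p = 0.0431) in T10R1, a call lost when any of the 8 T10R1 hearts was left out. The T5R1 count of 6 was 3 without control replicate 4 and 2 without stressed replicate 1.

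Of 45 tested genes of other proteins with thrombospondin type 1 repeats, 5 rose and 4 fell in T5R1, against 5.3% and 8.43% of all genes. In T10R1, 1 rose and 0 fell, against 0.774% and 0.36%. Adamts2, which trims procollagen, rose by 1.36 (SE 0.17) and 1.19. C7, a complement component, fell by 0.64 and Adgrb2, an adhesion receptor, by 0.60 in T5R1. Of 20 tested cartilage and tendon matrix genes, 5 rose and 5 fell in T5R1, and 2 rose and 0 fell in T10R1, beside the same shares of all genes. Col14a1, a fibril-associated collagen, rose by 1.74 (SE 0.23) and 1.20, and Col12a1, of the same class, by 2.03 (SE 0.41) in T5R1. Cytl1, a secreted protein of cartilage, fell by 0.87 and Chadl, a cartilage matrix protein, by 0.39 in T5R1. The T10R1 count of cartilage and tendon genes was 0 without stressed replicate 1, and 1 when any other single T10R1 heart except stressed replicate 3 was left out.

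THBS4 is known to bind ATF6 in the endoplasmic reticulum of heart muscle cells, so ATF6 and chaperone genes were read beside it. Of 23 tested, 0 rose and 1 fell in T5R1 (Canx, the chaperone calnexin, by 0.27), and 0 passed by limma in T10R1. There 2 of the 23 had an unadjusted p below 0.05, a smaller share than the 3613 of all 27532 genes. Of all genes, 5.3% were called higher and 8.43% lower in T5R1, and 0.774% and 0.36% in T10R1. Hspa5, the main chaperone of this compartment, had an effect of -0.41 (SE 0.14, adjusted p = 0.189) in T10R1. The list's single lower call in T5R1 was lost without control replicate 2 or stressed replicate 1, and with 3 other ways of processing: normexp background, the authors' values and quantile normalisation, under which 1 gene of the list was called higher instead.

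Markers of other cell types were read beside these genes. Of the defining chondrocyte genes, Col2a1 and Matn1 were above background on 0 of 32 arrays, as was the tendon gene Kera, while Tnmd was on 1 array and Mkx on 2. Acan, Col9a1, Scx and Fmod were on 32 of 32, Cnmd on 26 and Snorc on 20. Of the 4 chondrocyte markers tested, 0 were measured higher in T5R1, with a median of -0.64 beside -0.12 over all genes. Cnmd alone was called lower there (-0.96, SE 0.21, adjusted p = 0.00276, limma), where 8.43% of all genes were. It was above background on 2 of 4 stressed and 3 of 4 control arrays. In T10R1, 2 of the 4 were measured higher and 0 were called. In T10R1 the effects on Scx, a tendon transcription factor, and Fmod, which encodes fibromodulin, were 0.76 (SE 0.23, adjusted p = 0.11, limma) and 0.81 (SE 0.23, adjusted p = 0.0825), with the arms apart for both. The summed level of Scx and Fmod, the 2 tested of the 5 tendon markers, was 2.51 to 2.95 in T10R1 controls and 3.59 to 5.56 in stressed hearts. In T5R1 it was 2.81 to 3.18 and 2.78 to 8.62. Of 10 macrophage markers, 7 rose in T5R1 and 1 in T10R1, against 5.3% and 0.774% of all genes. Their summed level was 31.4 to 36.6 in T5R1 controls and 37.7 to 61.4 in stressed hearts, and 31.4 to 36.1 and 42.5 to 54.4 in T10R1. Of 10 platelet markers, 0 rose in T5R1 by limma (2 had an unadjusted p below 0.05) and 1 rose in T10R1 (7 had), against the same shares. Of all 27532 genes, 8126 in T5R1 and 3613 in T10R1 had an unadjusted p below 0.05. All 10 platelet markers were measured higher in T5R1 (median 0.34) and in T10R1 (median 0.76), beside medians of -0.12 and 0 over all genes. The summed level of the platelet markers was 28.5 to 52.3 in T10R1 controls and 41.9 to 71.1 in stressed hearts. In T10R42 the 10 platelet markers had a median of -0.70 and 0 were measured higher, with 0 called by limma and 7 at an unadjusted p below 0.05. Among all 27532 genes 5166 were at an unadjusted p below 0.05 there. Of 10 skeletal muscle markers, 7 were tested, and 2 rose and 1 fell in T5R1, against 5.3% and 8.43% of all genes. Acta1, the skeletal actin that stressed heart muscle also makes, rose by 1.74 (SE 0.28) in T5R1 and 1.38 in T10R1, and Mybpc2 by 1.05 and 0.56 (SE 0.13). The summed level of the 7 tested, in which bright genes weigh most, was 43.5 to 55.1 in T5R1 controls and 92.1 to 145 in stressed hearts. In T10R1 it was 29.9 to 47.0 and 46.8 to 95.6. Only 3 of the 7 were measured higher in T5R1 (median -0.20) and 5 in T10R1 (median 0.13), so the sum does not stand for the list. Myh2 was above background on 0 arrays, Myh1 on 1 and Mylpf on 4. Of 6 adipocyte markers, 5 were tested and 0 passed by limma, with 2 at an unadjusted p below 0.05 in T5R1 and 0 in T10R1. Among all 27532 genes 8126 and 3613 were. The summed level of the 5 tested was 33.5 to 43.6 in T5R1 controls and 2.79 to 37.8 in stressed hearts, and 18 to 40.7 and 5.30 to 18.2 in T10R1. The part of these cells in the levels of the 7 genes was not tested.

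Promoters are printed for Cilp and Thbs4, the pair that varied most closely together. RefSeq entries on build GRCm38.p6 matched 5 of the 7 genes. The windows are the 250 bases before the start, at chr9:65264930-65265179 on the plus strand for Cilp and at chr13:92794819-92795068 on the minus strand for Thbs4. Capitals mark matches to CATTCC, the core bound by TEAD factors.
Cilp: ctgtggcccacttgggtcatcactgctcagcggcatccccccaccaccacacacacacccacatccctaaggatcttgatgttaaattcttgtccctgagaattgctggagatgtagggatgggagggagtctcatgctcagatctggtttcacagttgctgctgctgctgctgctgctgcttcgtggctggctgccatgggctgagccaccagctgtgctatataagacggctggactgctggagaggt
Thbs4: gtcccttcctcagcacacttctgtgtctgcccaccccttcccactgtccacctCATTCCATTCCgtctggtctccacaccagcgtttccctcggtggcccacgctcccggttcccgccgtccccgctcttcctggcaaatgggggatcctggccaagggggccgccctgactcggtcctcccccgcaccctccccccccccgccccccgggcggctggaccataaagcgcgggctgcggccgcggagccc
This core was searched on both strands, as were TATAAA, a strict spelling of the TATA box, and the AP-1 site, spelled TGANTCA, with the letters of these promoters already in view. The TEAD core occurred 2 times in the Thbs4 window, 197 and 192 bases before the start, in matches that share a base, and 0 times in that of Cilp. It occurs in 12.6% of 32851 RefSeq promoter windows of the same length, the strict TATA spelling in 12.4% and the AP-1 site in 6.75%. Those letters had 0 matches in either window, and other spellings of the TATA box were not searched.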

How the data were processed

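RNA of 32 hearts (4 per group, 8 groups) was labelled with Cy3 and hybridised to 1-colour Agilent arrays. Each deposited scanner file gives the intensity of every spot, with background subtracted by Agilent Feature Extraction 10.7.3.1, per the file headers. They also hold other values, namely deposited flags of 0 or 1 per spot for background, saturation and outliers. The authors' value table holds log2 values, used only as an alternative. Its columns correlate at 0.9995 or more with the log2 of the uncorrected mean spot signal, so its scale is known, while the steps behind its normalisation are not given in the sources used here.

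Of 62976 spots per array, 3671 control spots were left out and 59305 were kept. Among the values of the kept spots, counted over all arrays together, 5470 were flagged as outliers and left out. Of the probe values, 0 were saturated. A probe was kept if well above background on at least 3 arrays of a group of 4. The brightest probe of a gene was used, which left 27532 genes. The values were log2 processed signal minus the 75th percentile of the array. The 75th percentile signal ran from 237.2 to 498.9, and 28792 to 40672 probes per array were well above background. The number of arrays limits the precision. limma 3.58.1 in R 4.3.3 fitted 8 group means with 24 residual and 2.28 prior degrees of freedom, and tests were two-sided with Benjamini-Hochberg adjustment. The script was tested on simulated data. Each array is a separate mouse, per the labels.

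The 7 genes, the gene lists and the tests were chosen with earlier results of these data known. Named list genes are the called genes with the smallest p, up to 4 per list and condition, or the 2 with the smallest p where none was called. Genes like Cilp or Thbs4 are the 5 with the highest r and an official symbol. Some genes are in more than 1 list (such as Ltbp2). Motifs were searched with the promoters in view. Alternatives covered background, scaling, filters, probe choice, arrays left out, slide row and replicate number.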

Additional observations from a re-analysis of the deposited data

Results flagged for a closer look

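In the group of 4 control hearts of T10R1, replicate 3 had a Thbs1 level of 4.13, far above the other 3, and in the stressed hearts of T10R1, replicate 4 had a Cilp2 level of -2.91, far below the other 3. Of the 56 groups of 4 hearts examined (7 genes in 8 groups), these 2 held a heart beyond Dixon's 95% critical value of 0.829, where chance gives about 1 in 20.

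The stress effect differed between T10R42 and T10R1 by the limma test of the difference for Cilp (-2.56), Thbs4 (-1.80), Comp (-1.35) and Thbs3 (-0.86). All 4 differences share the T10R1 and T10R42 hearts and slides.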

How the results depend on the processing

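Of 532 recomputed stress effects on the 7 genes, 1 moved by more than the spread between hearts: Thbs1 in T10R1, to 0.69 without control replicate 3. The filters, the replicate block, slide row as a covariate and the fit of a condition alone use the same probes and group means. They could not move these effects, and the mean of probes could move only Thbs3, so the count overstates how many settings were a check. Of 567 recomputed differences, 17 changed sides of the threshold. For T10R42 against T10R1, the Cilp difference kept its call in all (-2.90 to -2.33 with a heart left out). With a heart left out the Thbs4 difference ran from -2.11 to -1.57, Comp from -1.55 to -1.16 and Thbs3 from -0.96 to -0.72. Thbs3 was -0.86 (adjusted p = 0.0653) with no filter, which tests more genes. Comp in T10R1 against T5R1 ran from 0.95 to 1.34. The cause of the other changes was not tested.

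Replicate numbers were not shown to pair the hearts. Over 16 pairs, deviations correlated at -0.27 to 0.21, and 6 of the 16 control hearts correlated best with the stressed heart of their own number. These values cannot exclude a pairing. With the number as a replicate block, the differences themselves cannot change, since each block holds 1 control and 1 stressed heart. For T10R42 against T10R1, the limma adjusted p went from 0.00793 to 0.0248 for Cilp (-2.56) and from 0.0221 to 0.0338 for Thbs4 (-1.80). For Comp (-1.35) it went from 0.0231 to 0.0495, and for Thbs3 (-0.86) from 0.0431 to 0.0407. The block moved counts of called list genes by over 1.5 times for fibroblast markers in T10R1 (10 to 6), TGF-beta and IGF-1 genes in T10R1 (3 to 1), receptors in T5R1 (6 to 3) and ATF6 genes in T5R1 (1 to 2).

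Counts of called genes over all genes moved most. T5R10 (21) became 1088 without the marked arrays, 86 with quantile normalisation, 33 with the authors' values, 9 with no filter or slide row as a covariate, and 0 with its own arrays alone or the block. T10R1 (312) became 181 with no filter, 185 with quantile normalisation and 4 alone. T10R42 (247) became 124 with normexp, 127 with the authors' values, 119 with no filter, 375 with quantile normalisation, 492 with a percentile over detected probes, 508 without the marked arrays and 0 alone. T5R10 against T5R1 (686) became 392 with no filter, 396 with the block and 209 alone. T10R42 against T10R1 (1135) became 451 with no filter, 539 with quantile normalisation and 670 with the authors' values. T10R1 against T5R1 (163) became 12 with no filter, 33 with the block, 73 with quantile normalisation, 296 with slide row, 371 without the marked arrays and 546 alone. With a heart left out, counts ran from 2177 to 3835 in T5R1 (3778), 5 to 606 in T5R10, 86 to 298 in T10R1, 34 to 1444 in T10R42, 311 to 1062 for T5R10 against T5R1, 305 to 2093 for T10R42 against T10R1 and 11 to 321 for T10R1 against T5R1. The split of 1458 higher and 2320 lower in T5R1 became 1918 and 1103 with quantile normalisation, 1852 and 1167 with the authors' values and 1740 and 1436 with the percentile over detected probes. That of 213 and 99 in T10R1 became 145 and 40 with quantile normalisation and 318 and 55 with that percentile, and that of 520 and 615 for T10R42 against T10R1 became 709 and 357 with normexp and 263 and 1355 with that percentile. That of 79 and 168 in T10R42 became 195 and 180 with quantile normalisation and 66 and 426 with that percentile. Array number and signal over background limit what can be called.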

Other observations

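In the T10R1 control heart with the high Thbs1 level, Thbs1 exceeded the highest of the other 3 hearts of its group by 3.80 on the log2 scale, the rank 10 excess among 16662 genes with an official symbol that were above background there. The 9 genes with a larger excess were Fos, which encodes a subunit of AP-1 (6.23), the transcription factor genes Egr2 (5.27), Egr1 (5.13) and Atf3 (4.34), and Btg2 (4.17), Fosb (4.04), Tmem190 (4.01), Ccn1 (3.90) and Prrt2 (3.85). They were named after their values were seen, and no list was tested. In all, 205 genes exceeded the other hearts by more than 1 and 72 by more than 2 log2 units. This is a single heart, so no test was made.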
